A study of Homo sapiens with 6 samples.

Results

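The data described here are the splicing readouts of 10 genes that encode heterogeneous nuclear ribonucleoproteins (hnRNPs) or a close relative, namely HNRNPC, RALY, HNRNPF, HNRNPH1, HNRNPH3, HNRNPK, HNRNPM, HNRNPR, SYNCRIP and HNRNPU. They were chosen by name, as rows of the 5 rMATS junction tables that carry one of these symbols and average at least 10 reads per library. Of 144 rows listed for these genes, 138 met this rule among 66396 events in all, 5 lay under 10 reads, and 1 row of HNRNPH1 could not be read because its list of counts had no unique division. All 10 genes kept at least 1 event, from 1 in HNRNPF to 39 in HNRNPH1. The 138 events comprise 90 cassette exons (SE), 19 pairs of mutually exclusive exons (MXE), 12 alternative 5ʹ splice sites (A5SS), 12 retained introns (RI) and 5 alternative 3ʹ splice sites (A3SS).

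The study asked how SAM68, an RNA-binding protein of the STAR family encoded by KHDRBS1, acts on splicing in lung adenocarcinoma. NCI-H1975 cells, an established human lung adenocarcinoma line, received 2 µg per well of either the empty PCDNA3.1 plasmid (control, 3 libraries) or the PCDNA3.1-SAM68 plasmid (SAM68, 3 libraries), and RNA was taken after 48 h. Both groups therefore share the cell line, the plasmid backbone and the transfection, and the SAM68 gene of the cells was left in place in both. The study's methods call the 3 libraries biological replicates, and the tables list the libraries of a group in a fixed order without naming them, so they are given here by list position.

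hnRNPs coat nascent pre-mRNA and steer the choice of splice sites, often as repressors of the exons they bind inside or beside. HNRNPC and RALY bind uridine-rich tracts. HNRNPF, HNRNPH1 and HNRNPH3 bind runs of guanosine through quasi-RNA-recognition motifs. HNRNPK binds cytidine-rich RNA through KH domains, and HNRNPM prefers GU-rich RNA. HNRNPR and SYNCRIP (hnRNP Q) are close paralogs, and HNRNPU (scaffold attachment factor A) links RNA to chromatin. Transcripts of many splicing factors are themselves alternatively spliced, and exons that shift the reading frame can send them to nonsense-mediated decay.

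A selection of the alternative coding segments is printed first, those of HNRNPC, HNRNPH3, HNRNPK, HNRNPM and RALY, since inclusion values below refer to them. Each sequence was read from hg38 on the transcript strand. Capitals mark the alternative segment, and the 20 bases on each side are in lower case. In the 39-nt segment of HNRNPC and the 45-nt segment of HNRNPH3 the upstream lower-case bases are exon, and the downstream lower-case bases of the short form of HNRNPH3 exon 4 are the start of that 45-nt segment. In HNRNPM exon 6 the 39-nt and 36-nt outer parts are in capitals, with the 117 bases between them in lower case because they can be spliced out as an intron.
HNRNPC 39-nt segment: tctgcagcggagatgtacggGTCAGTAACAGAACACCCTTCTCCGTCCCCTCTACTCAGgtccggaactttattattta
HNRNPH3 exon 4, short form: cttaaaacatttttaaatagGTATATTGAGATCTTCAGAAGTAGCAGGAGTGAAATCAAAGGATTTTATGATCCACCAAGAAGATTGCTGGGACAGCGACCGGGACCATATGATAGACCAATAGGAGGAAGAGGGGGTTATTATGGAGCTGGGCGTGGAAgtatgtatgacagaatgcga
HNRNPH3 45-nt segment: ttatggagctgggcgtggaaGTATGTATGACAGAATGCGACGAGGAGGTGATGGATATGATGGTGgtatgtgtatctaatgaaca
HNRNPK exon 8: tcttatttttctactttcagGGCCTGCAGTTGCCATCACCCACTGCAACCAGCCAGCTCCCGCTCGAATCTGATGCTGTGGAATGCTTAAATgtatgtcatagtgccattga
HNRNPM exon 6: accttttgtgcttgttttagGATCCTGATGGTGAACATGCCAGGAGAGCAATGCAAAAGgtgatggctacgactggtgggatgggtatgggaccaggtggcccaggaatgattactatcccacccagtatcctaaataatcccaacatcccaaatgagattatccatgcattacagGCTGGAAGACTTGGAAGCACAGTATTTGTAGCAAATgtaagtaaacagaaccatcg
HNRNPM exon 13: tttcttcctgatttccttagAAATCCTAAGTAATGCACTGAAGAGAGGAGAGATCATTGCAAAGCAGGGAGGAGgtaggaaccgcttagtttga
RALY exon 5: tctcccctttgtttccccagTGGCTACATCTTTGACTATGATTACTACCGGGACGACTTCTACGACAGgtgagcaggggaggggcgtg

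They lie at chr14:21230958-21230996 (HNRNPC, minus strand), chr10:68338503-68338642 and chr10:68338643-68338687 (HNRNPH3, plus strand), chr9:83973902-83973973 (HNRNPK, minus strand), chr19:8465324-8465515 and chr19:8483158-8483211 (HNRNPM, plus strand), and chr20:34073819-34073866 (RALY, plus strand). All are coding in GENCODE 44, and exon numbers are those of its canonical transcript. Apart from the 140-nt form of HNRNPH3 exon 4, their lengths are multiples of 3, so that inclusion and skipping keep the reading frame.

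The deposited tables were first checked against the labels. Junction reads of KHDRBS1, scaled to 1000000 junction reads (rpm), were 311, 328 and 316 under control and rose to 1230, 1260 and 1276 under SAM68, a log2 difference of 1.98 ± 0.05 (SE; adjusted p = 1.16e-21, limma). The plasmid and the gene of the cells share these junctions and cannot be told apart, nor can more transfected cells and more RNA per cell in such bulk libraries. The deepest event of each gene summed to between 5449695 and 6337736 reads per library, and all 15 pairs of libraries differed by more than sampling noise (chi-square per degree of freedom of at least 3.14). Among epithelial markers KRT18 had 471 to 492 rpm in control and 521 to 530 in SAM68, KRT8 had 236 to 520 and 230 to 248, and KRT7 had 3.02 to 4.48 and 1.26 to 2.20. Their log2 differences were 0.12, -0.41 and -0.89, each at an unadjusted p under 0.05 and none at an adjusted p under 0.05 (0.305, 0.254 and 0.383, limma), and the groups did not overlap in KRT18 and KRT7. Their part in the results below was not tested. EPCAM, CDH1, KRT19 and NKX2-1 had no event to analyse here. Of 6 markers of other cell types only CD68 had events (92.0 to 104 rpm). The tables list only genes with alternative events, so a missing marker says nothing about its level.

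To determine whether SAM68 overexpression altered the splicing of the hnRNP transcripts themselves, inclusion was compared between the groups in all 138 events. Inclusion is given as PSI, the percentage of junction reads with the segment after division by effective length, and calling an event took a PSI difference of 10 points or more beside an adjusted p under 0.05. These criteria were met by 1 of the 138 events, an MXE event of HNRNPM, against 0.0271% of all 66396 events. No further member event passed the adjusted p alone, which 0.0979% of all events did. At an unadjusted p under 0.05 there were 17 member events (12.3%, with 10 higher and 7 lower in SAM68), against 8.46% of all events. The groups did not overlap in 14 member events (10.1%, with 7 higher and 7 lower), against 6.1% of all events. Several of these events share junctions and thus reads, so they are not 14 separate observations.

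The typical difference was small. The median absolute PSI difference was 0.32 points over the 138 member events and 1.24 points over all events, at a median of 937 and 111 reads per library. Member events were deeper, and shallow events scatter more. Among events with at least 50 reads the medians were 0.27 points in 126 member events and 0.76 points in 48165 events in all. Of the 138 events, 71 had a mean PSI above 95%, 23 were below 5%, and 44 lay between, 31.9% against 32.3% of all events. In those 44 events the median absolute difference was 2.15 points, against 4.38 points in the corresponding events of all genes. Leaving out 1 library moved the difference by over 1.5 times or turned its sign in 19 of the 22 uncalled events named by rule. Differences of at least 10 points occurred in 3 member events (2.17%, against 7.16% of all events), 2 of which had under 50 reads. Among events with at least 50 reads the shares were 0.79% and 1.86%.

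**Figure D1:**
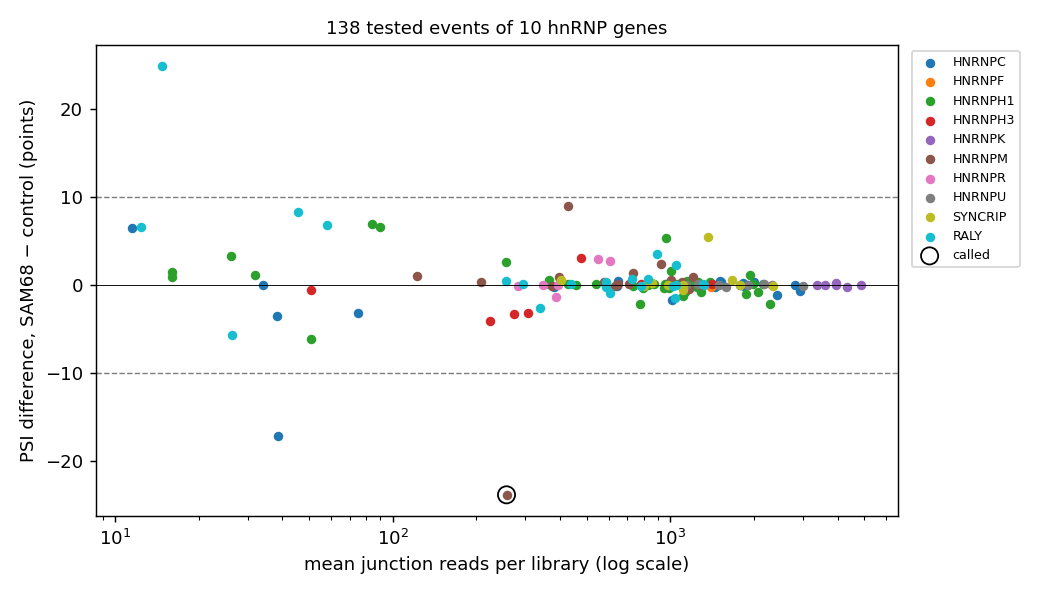
PSI difference (SAM68 minus control, in points) of each of the 138 tested events against its mean junction reads per library on a log scale, coloured by gene. Dashed lines mark 10 points, and a ring marks the called event of HNRNPM at -23.8 points. The other differences beyond 10 points, in HNRNPC and RALY, lie at 38 and 15 reads.

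The uridine-tract binders HNRNPC and RALY are described first. The 39-nt segment of HNRNPC adds 13 codons and distinguishes the C2 from the C1 protein, the pair of isoforms that form the hnRNP C tetramer. Its PSI was 30.3%, 28.9% and 32.3% in control and 31.6%, 29.1% and 28.8% in SAM68, at about 2920 reads per library. The groups overlapped, and the difference was -0.67 points (adjusted p = 0.828, 95% interval of the difference from pooled reads -2.55 to 1.42). The 26-nt exon 2 of HNRNPC, which holds no coding sequence in GENCODE 44, was included at 72.6%, 69.3% and 69.6% in control and 71.3%, 69.7% and 67.2% in SAM68 (-1.09 points, adjusted p = 0.589). An untranslated 46-nt exon of HNRNPC had the largest difference among its events with at least 50 reads, from 5.09% ± 2.64 in control to 1.94% ± 1.06 in SAM68 (SD, n = 3 each; adjusted p = 0.566). These groups overlapped. The difference of -3.15 points was -1.81 without control position 1, and it was -0.27 points when the reads of events sharing that exon were summed. An MXE event of 2 rare exons of HNRNPC differed by -17.1 points at 38 reads (adjusted p = 0.733).

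RALY, a relative of HNRNPC, uses an in-frame 48-nt exon 5 that was included at 81.9%, 81.4% and 82.9% in control and 79.9%, 84.5% and 84.1% in SAM68. The SAM68 values lay on both sides of the control values, with a difference of 0.74 points (adjusted p = 0.829). The untranslated 83-nt exon 2 was included at 93.4%, 91.0% and 92.1% in control and 93.6%, 92.9% and 96.7% in SAM68 (2.22 points, adjusted p = 0.566, with 1.08 points without SAM68 position 3 and 1.43 points without the division by effective length). A rare untranslated 117-nt exon stood at 11.6% ± 3.16 in control and 18.4% ± 7.76 in SAM68, at 58 reads per library, with overlapping groups (adjusted p = 0.566). Its difference of 6.82 points was 2.79 without SAM68 position 3 and 10.5 without SAM68 position 1. Summed over the events of that exon, the difference was -0.36 points. One of those events, against another junction, gave 24.8 points at 15 reads (adjusted p = 0.566), where control alone ranged from 40.5% to 100%.

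Of the guanosine-run binders, HNRNPF carries its coding sequence in its last exon, and its only event is an untranslated 59-nt exon 3. It was included at 99.2% to 100% in all 6 libraries, at 1404 reads per library. HNRNPH1 has 39 events, of which 13 have a mean PSI between 5% and 95%. Its frame-shifting 139-nt exon 5 was included at 95.2%, 94.7% and 94.5% in control and 93.8%, 93.3% and 94.9% in SAM68 (-0.79 points, adjusted p = 0.566). Its frame-shifting 50-nt exon 13 was included at 81.4%, 86.7% and 86.2% in control and 86.1%, 85.6% and 87.1% in SAM68 (1.55 points, adjusted p = 0.566). The largest difference of HNRNPH1 with at least 50 reads was in its 179-nt exon 6 where exon 4 is joined past exon 5, from 51.6% ± 5.13 to 58.5% ± 9.18 (6.90 points, adjusted p = 0.566). Summed over the events of that exon, the difference was 0.625 points. The SAM68 library at list position 1, at 69.1%, stood above the other 5 libraries, which lay between 45.9% and 55.8%, and without it the difference was 1.61 points.

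Read counts in the 51-nt segment of HNRNPH1 exon 10 jumped between libraries of a group. Inclusion reads were 77, 719 and 65 in control and 53, 50 and 551 in SAM68, so that 1 library of each group held the bulk of the reads. PSI ranged from 83.9% to 100% (2.56 points, adjusted p = 0.862). A range of total reads above 5-fold within a group occurred in 2 of the 138 member events and in 1.88% of all events.

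HNRNPH3 showed a small shift in which the groups did not overlap. Reads that join exon 2 to the exon after exon 4, and so leave out exon 3 as well as exon 4, numbered 2, 1 and 0 in control and 8, 4 and 4 in SAM68. Set against these reads, the 140-nt short form of exon 4 was included at 98.9%, 99.4% and 100% in control and 95.6%, 96.6% and 96.6% in SAM68. The difference was -3.18 points (adjusted p = 0.402, interval -5.60 to -0.95) and did not pass the adjusted threshold. The same reads enter 2 further events, the 185-nt long form of exon 4 (-3.29 points) and a 5ʹ splice site choice (-4.08 points, adjusted p = 0.501), so these are 1 observation. Without the division by effective length the last difference was -2.11 points. The 45-nt segment that separates the short from the long form was used at 38.0%, 36.9% and 39.5% in control and 37.8%, 44.2% and 41.8% in SAM68 (3.08 points, adjusted p = 0.687). The deepest alternative exon, the 139-nt exon 3, was included at 93.2% ± 1.77 in control and 93.3% ± 2.57 in SAM68 (adjusted p = 0.968).

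HNRNPK was read deeply, with 4332 reads per library over its in-frame 72-nt exon 8. The exon was included at 92.2%, 91.7% and 90.9% in control and 91.5%, 89.9% and 92.7% in SAM68. The groups overlapped, and the interval of the difference was -1.35 to 0.97 points (adjusted p = 0.858). The remaining 5 cassette exons of HNRNPK had a mean PSI above 95%.

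HNRNPR and SYNCRIP encode paralogous proteins, and both were studied here through coding exons. In HNRNPR, the in-frame 177-nt exon 6 was included at 93.9%, 93.5% and 92.5% in control and 95.3%, 95.5% and 97.5% in SAM68. The in-frame 114-nt exon 5 was included at 93.0%, 89.7% and 94.2% in control and 94.2%, 95.9% and 95.5% in SAM68. The groups did not overlap in either exon, barely so in exon 5, and their means differed by 2.77 points in exon 6 and 2.94 points in exon 5 (adjusted p = 0.565 and 0.566). Summed over the events of each exon, the differences were 1.78 and 1.77 points, and without control position 2 that of exon 5 was 1.63 points. Without the division by effective length they were 1.46 points in exon 6 and 1.68 points in exon 5. The mostly skipped 166-nt exon 2 of HNRNPR was included at 29.9%, 24.5% and 22.0% in control and 24.1%, 29.2% and 23.1% in SAM68 (0.02 points, adjusted p = 0.977).

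The 160-nt exon 2 of SYNCRIP was included at 77.8%, 77.8% and 79.5% in control and 77.7%, 78.9% and 80.1% in SAM68 (0.57 points, adjusted p = 0.786, and from -0.05 points without SAM68 position 3 to 1.19 without SAM68 position 1). An MXE event of SYNCRIP set its exon 8 (206 nt) against its exon 11 (367 nt), with 63.0%, 72.5% and 69.3% in control and 72.9%, 71.5% and 76.9% in SAM68 (5.49 points, adjusted p = 0.326, and 2.86 points without control position 1). As cassette exons the same exons were included at 99.8% and 98.4%, so that few reads skipped either.

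HNRNPU transcripts showed little alternative splicing in either group. Each of its 4 cassette exons and its A5SS event had a mean PSI above 95%, and its 3 retained introns lay below 5%. The deepest, the 129-nt exon 9, had 3 skipping reads in a SAM68 library and 0 in the other 5, against 2781 to 3362 inclusion reads. A 1986-nt intron was retained at 0.32% ± 0.06 in control and 0.14% ± 0.15 in SAM68 (adjusted p = 0.536).

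**Figure D2:**
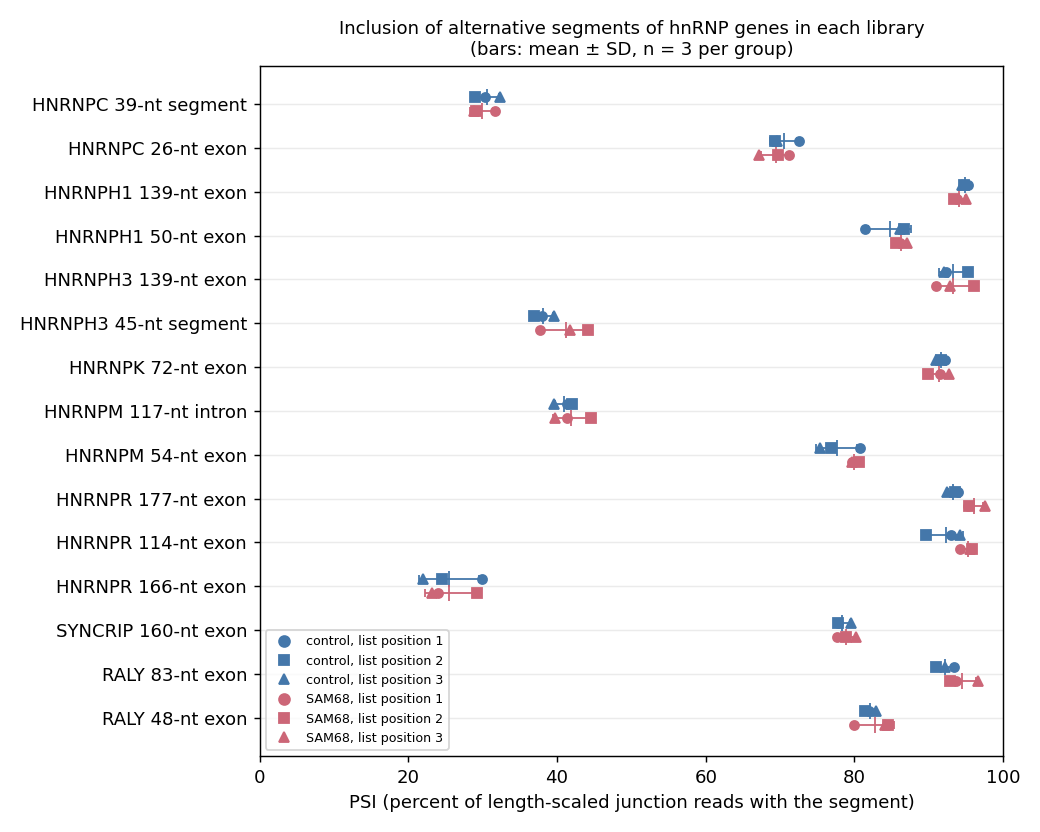
PSI in percent of 15 alternative segments of 8 of the hnRNP genes in each library, with control in blue and SAM68 in red, marker shape for list position, and bars for the mean ± SD of 3 libraries. Group means differ by 0.02 to 3.08 points, and the groups separate only in the 177-nt and 114-nt exons of HNRNPR.

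The called event lies in HNRNPM exon 6. This 192-nt exon is either kept whole or split by removal of its central 117 bases, leaving exons of 39 and 36 nt. The table lists the 39-nt and the 36-nt exon as mutually exclusive. Reads for the 39-nt form were 149, 55 and 92 in control and 54, 1 and 1 in SAM68, and reads for the 36-nt form were 219, 184 and 213 in control and 211, 182 and 179 in SAM68. PSI of the 39-nt form was thus 40.1%, 22.7% and 29.8% in control and 20.1%, 0.54% and 0.55% in SAM68. The groups did not overlap, with SAM68 list positions 2 and 3 near 0 and position 1 close to the lowest control. The difference was -23.8 points (adjusted p = 0.0171, exact permutation p = 0.1, the smallest that 3 against 3 allows).

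In the other events of the same exon the groups overlapped. Removal of the 117 bases was measured directly, with retention at 41.3%, 42.1% and 39.6% in control and 41.4%, 44.5% and 39.7% in SAM68 (0.88 points, adjusted p = 0.860, interval -2.08 to 3.66). As cassette exons the 39-nt exon was included at 98.5% to 100% and the 36-nt exon at 99.6% to 100% in all 6 libraries. The reads can be decomposed exactly. In each library the reads for the 39-nt form equal the inclusion reads of the 39-nt cassette event, minus the reads that join the 39-nt to the 36-nt exon, plus the reads that skip the 36-nt exon. The last term, which alone distinguishes mutually exclusive use, was 1, 2 and 0 in control and 2, 0 and 0 in SAM68, or 5 of 352 reads. Likewise 16 of 1188 reads for the 36-nt form skip the 39-nt exon. The difference therefore lies in 148, 53 and 92 control reads and 52, 1 and 1 SAM68 reads. They join the upstream exon to the 39-nt exon without crossing its far junction. The unsplit 192-nt exon starts at the same base, so these reads cannot be assigned to the 39-nt form.

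Another MXE event of HNRNPM had no reads for 1 of its forms in the same libraries. It sets a 61-nt exon against an 8-nt exon upstream of exon 6. The 8-nt exon is exon 4 of the canonical transcript and is present in 9 of the 10 annotated transcripts that span it. The 61-nt exon is present in 0 of the 9 annotated transcripts that span it. Neither was measured as a cassette exon, so how often either is included on its own was not tested. Reads for the 8-nt form were 76, 21 and 35 in control and 21, 0 and 0 in SAM68. By read sampling alone, the 0 of 339 reads at list position 2 allows a share of up to 0.885%. This bound leaves out the spread between libraries. PSI of the 61-nt form was 82.9%, 93.3% and 90.1% in control and 93.1%, 100% and 100% in SAM68 (8.93 points, adjusted p = 0.0902). SAM68 position 1 lay within the control range here and just below it in the called event, whereas positions 2 and 3 stood apart in both. What sets these libraries apart was not tested.

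The call in HNRNPM was lost in 4 of the 6 fits that left out a library. These were the fits without control position 1 (-19.2 points, adjusted p = 0.497), control position 2 (-27.9 points, 0.131), SAM68 position 2 (-20.5 points, 0.0669) and SAM68 position 3 (-20.5 points, 0.131). In all 6 the difference stayed between -30.3 and -19.2 points. The spread of the event itself was 23.9 times binomial, against 5.68 in the moderated test, and with its own spread the adjusted p was 0.863. Without both SAM68 positions 2 and 3, left out because their reads had been seen to be near 0, the difference was -10.8 points (adjusted p = 0.634). That fit holds 1 SAM68 library, which is assumed to vary like control. The in-frame 54-nt exon 13 of HNRNPM, farther downstream, was included at 80.7%, 76.8% and 75.4% in control and 79.6%, 80.6% and 79.6% in SAM68 (2.33 points, adjusted p = 0.566).

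MXE events made of exons that are each nearly always included occurred in further genes. Of 19 MXE events, 18 had both exons measured as cassette exons as well, and in 10 of them both were included at 95% or more. The remaining event was that of the 61-nt and 8-nt exons. In HNRNPH1, the deepest event of the gene set exon 3 (156 nt) against exon 4 (144 nt) with 55.0% ± 1.19 in control and 52.8% ± 4.72 in SAM68 (adjusted p = 0.734), while as cassettes both exons stood at 99.9% or more. The difference of -2.21 points was -4.93 without SAM68 position 2, -0.863 without position 1 and -0.830 without position 3. Another, with exons of 128 and 90 nt, gave 36.7%, 36.4% and 40.9% in control and 42.2%, 42.0% and 46.0% in SAM68 (5.36 points, adjusted p = 0.365).

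Motifs of the type bound by SAM68 were counted as a description. The 15 cassette exons named by rule were searched on the transcript strand for TAAA and TTAA in the 100 nt of intron on each side, where the motifs overlap by up to 3 letters. TAAA was present on either side in 11 of 15 (73.3%) and TTAA in 12 of 15, against 59.5% and 60.8% of 38685 tested cassette exons. RALY exon 2 and RALY exon 8 held neither, whereas HNRNPH3 exon 3, HNRNPR exon 6 and HNRNPU exon 9 held both motifs on both sides.

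To see whether the amounts of these transcripts changed, junction reads of each gene's deepest event were compared in rpm. Calls took a log2 difference of 1 or more and an adjusted p under 0.05 (limma). None of the 10 genes was called, against 0.0493% of 10147 genes. An unadjusted p under 0.05 was reached by 2 of the 10, against 1224 of all 10147 genes. The groups did not overlap in 4 of the 10, HNRNPK, HNRNPC, HNRNPF and HNRNPH1, against 16.8% of all genes. HNRNPK had 772, 749 and 779 rpm in control and 864, 835 and 976 in SAM68, a log2 difference of 0.21 ± 0.05 (SE, adjusted p = 0.0539). HNRNPC had 486, 449 and 470 in control and 535, 507 and 535 in SAM68 (0.17 ± 0.05, adjusted p = 0.152). All SAM68 libraries lay above control in both genes. Summed over all events of the gene instead of the deepest, the log2 difference was 0.05 in HNRNPK and 0.08 in HNRNPC.

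In the opposite direction, HNRNPF went from 247 ± 12.1 to 230 ± 5.74 rpm (SD, n = 3 each; log2 difference -0.10, adjusted p = 0.547) and HNRNPH1 from 402 ± 6.76 to 376 ± 21.2 (-0.10, adjusted p = 0.510). The other 6 genes, with log2 differences from -0.09 in RALY to 0.09 in HNRNPU, had overlapping groups and adjusted p of at least 0.550. Summed over all events, RALY, HNRNPU and HNRNPR took the opposite sign, at 0.07, -0.0060 and -0.03. For HNRNPM, the gene of the called event, the log2 difference was -0.03 (interval -0.16 to 0.10). Values in rpm are not compared between genes, because effective lengths of the events differ.

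**Figure D3:**
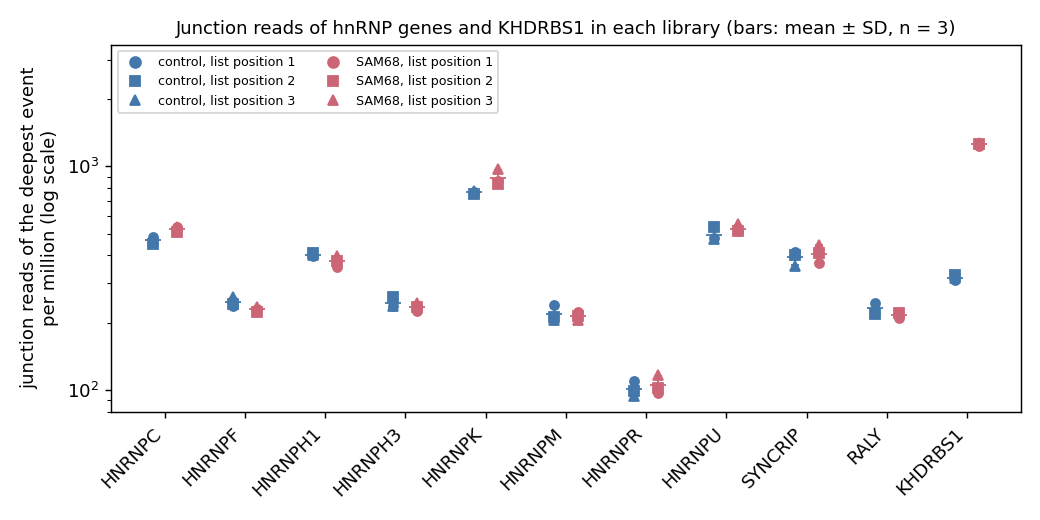
Junction reads of the deepest event in rpm (log scale) of the 10 hnRNP genes and KHDRBS1 in each library, with control in blue and SAM68 in red and bars for the mean ± SD of 3 libraries. KHDRBS1 goes from 319 to 1255, whereas HNRNPK, the hnRNP gene with the largest difference, goes from 767 to 891.

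Further members of the hnRNP family and related splicing regulators were examined for comparison. Of 19 such genes, 16 had tested events, 140 in all. None of these events was called (quasi-binomial test). At an unadjusted p under 0.05 there were 20 (14.3%, with 16 higher and 4 lower in SAM68), against 8.46% of all events. The groups did not overlap in 14 (11 higher and 3 lower), or 1 event in 10, against 6.1% of all events. None of the 16 genes was called by junction reads (limma), against 0.0493% of 10147 genes. An unadjusted p under 0.05 was reached by 3 of the 16, against 1224 of all 10147 genes.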

How the data were processed

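The authors trimmed reads with fastp 0.20.0, aligned them to GRCh38 with HISAT2 2.1.0 and ran rMATS (versions from the submitters' notes, rMATS version not given in the sources used here). The deposited tables list inclusion and skipping read counts for 3 libraries per group. The columns of the authors' own comparison (p-value, FDR, inclusion difference) were not used, and the deposited inclusion levels (a fraction per library) served only to check and restore the count lists. The first list was taken as control, after the comparison the study names. In the A3SS table, 275 rows had regrouped digits, of which 163 were restored and 112 left out.

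Events averaging at least 10 reads were fitted with a quasi-binomial model of the group. Pearson dispersions were moderated by type (squeezeVar, limma 3.58.1, R 4.3.3) and then raised to at least 1, and F tests were adjusted by Benjamini-Hochberg within type. MXE inclusion is that of the more 5ʹ exon. The 95% intervals use pooled reads and this dispersion. Gene reads were tested with limma on log2(rpm + 0.5). Named per gene were the deepest event, the deepest with a mean PSI of 5% to 95%, the largest difference at 50 reads or more, and any with an adjusted p under 0.05. Further events were named after their values were seen, and the members and lists were chosen with earlier results of these data known. P-values measure the spread between these libraries.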

Additional observations from a re-analysis of the deposited data

How the results depend on the processing

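No paired analysis was possible because the tables list the libraries of a group without replicate numbers. The count of 18 called events was 2 with each event's own dispersion, 3 with limma on the logit of PSI, 41 at a limit of 5 points, and 7 (without SAM68 position 1) to 28 (without SAM68 position 2) when a library was left out. Without control position 1 it was 10 and without SAM68 position 3 it was 11. Alternatives added after seeing the data gave 94 with dispersions raised to 1 before the moderation and 58 without SAM68 positions 2 and 3, a fit with 1 SAM68 library, assumed to vary like control. The count of 1 called member event was 0 to 2 when a library was left out, with the 61-nt and 8-nt exons of HNRNPM as the addition without SAM68 position 1. It was 0 with its own dispersion (3 member events at an unadjusted p under 0.05), with limma on the logit (8), with 1 adjustment over the 5 types (17, with HNRNPM at an adjusted p of 0.0673) and without both SAM68 positions (7). The PSI difference of the called event of HNRNPM was -30.3 to -19.2 points when a library was left out. Leaving out 1 library moved by over 1.5 times, or turned, 19 of the 22 other PSI differences and 8 of the 10 hnRNP gene differences named by rule. The count of 5 called genes was 3 with median-of-ratios size factors, 3 with summed events and 1 (without control position 1 or 2) to 12 (without SAM68 position 3) when a library was left out, with 0 hnRNP genes among them each time. HNRNPK passed the adjusted p alone with size factors (0.0331) and without SAM68 position 2 (0.0102). Depth limits the rare exons under 50 reads, and intervals cover counting error and the fitted dispersion only.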
